A study of Mus musculus with 6 samples.

Results

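The genes described here are the matrix metalloproteinases (Mmp), their tissue inhibitors (Timp), the secreted ADAMTS proteases (Adamts) and the ADAMTS-like proteins (Adamtsl). Members were chosen by gene symbol alone, and 48 of the 17830 rows of the deposited count table matched, 20 Mmp, 4 Timp, 19 Adamts and 5 Adamtsl genes. They were measured by bulk RNA sequencing in 6 libraries of cultured skull bone (calvarial) cells from mice labelled male and 6 months old. The cells were sorted as tdTomato-positive and labelled osteoblast. Control cells (3 libraries) carried mOCN-Cre and Ai9, and APPswe cells (3 libraries) carried the same pair of alleles plus LSL-APPswe, the genotype TgAPPswemOCN-Cre;Ai9. The question for these genes was how each differed between APPswe and control cells, and how far Mmp9 stood out among them.

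In both groups Cre came from a knock-in at the end of the mouse osteocalcin gene Bglap, joined to it by a P2A peptide, so Cre activity depends on the Bglap promoter. Ai9 turns on the red reporter tdTomato in cells where Cre has been active, and LSL-APPswe then expresses human APP with the Swedish mutations from the ubiquitous CAG promoter. Cre alone and the reporter are thus shared by both groups. The labels do not say whether the libraries came from separate mice or cultures, so p-values measure only the spread between these samples.

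Matrix metalloproteinases are zinc-dependent enzymes that cut collagens and other matrix proteins outside the cell or at its surface, and they are made as inactive precursors. The TIMPs are small proteins that occupy their active sites. ADAMTS proteases share the zinc chemistry but carry thrombospondin repeats and act on proteoglycans, procollagens and microfibrils, while ADAMTS-like proteins resemble them without the catalytic domain. In bone, Mmp9, a gelatinase, is known chiefly as a product of osteoclasts, and Mmp13, a collagenase, as a product of osteoblasts and hypertrophic chondrocytes.

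The catalytic site separates these families in sequence, which is shown because the genes called between genotypes fall on both sides of that line. The motif of 3 zinc-binding histidines and a glutamate was searched in the longest GENCODE vM21 coding sequence of each gene. It was present in 20 of 20 Mmp and 19 of 19 Adamts members, and in 0 of 4 Timp and 0 of 5 Adamtsl members. The 33 coding bases of the site follow for Mmp9, for its closest relative by function Mmp2, and for the other called proteases, with the 3 histidine codons in capitals.
Mmp9, exon 8, chr2:164951133-164951165, plus strand: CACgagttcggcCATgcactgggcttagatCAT
Mmp2, exon 8, chr8:92839279-92839311, plus strand: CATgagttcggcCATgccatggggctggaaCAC
Mmp15, exon 5, chr8:95368585-95368617, plus strand: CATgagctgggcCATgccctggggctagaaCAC
Mmp16, exon 5, chr4:18051748-18051780, plus strand: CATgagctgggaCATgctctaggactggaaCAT
Adamts12, spliced from exons 7 and 8 within chr15:11241529-11255564, plus strand: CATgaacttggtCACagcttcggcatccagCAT
All positions are in GRCm38, the build named in the submitters' processing notes. Of the 33 bases, Mmp2 and Mmp15 each shared 25 with Mmp9, Mmp16 shared 23 and Adamts12 shared 18.

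Total counts ranged from 17263757 to 18398392 per library, and 3 counts, taken as the floor of detection for counting error only, corresponded to 0.167 to 0.173 CPM (counts scaled to a common library size after TMM). Control replicate 2 stood apart from the other controls. Its biological coefficient of variation was 0.344 against control replicate 1 and 0.348 against control replicate 3, whereas it was 0.0658 between replicates 1 and 3. In APPswe cells it was 0.0760 and 0.0789 for replicate 1 against replicates 2 and 3 but only 0.0202 between replicates 2 and 3. The chi-square per gene of that last pair was 1.57, still above sampling noise, so they were kept as 2 libraries, and whether they share a culture is not given. The labels give male mice. The 4 Y-linked genes examined had 2 counts in all in control replicate 2, against that label, and at least 2257 in each other library. Bglap had 1 count in control replicate 2 against 115 to 204 in the others. The median of 12 osteoblast markers was 1.91 CPM in that library and 20.9 to 33.9 CPM in the others, although Col1a1 and Col1a2 were abundant in all 6. With these 2 genes included, the summed level was 14402 CPM in control replicate 2 and 11095 to 13701 CPM in the others. Macrophage markers were present throughout, with a summed level over 13 genes of 18323 to 25434 CPM in control and 12748 to 13813 CPM in APPswe libraries. Their median was 574 to 754 CPM in control and 407 to 464 CPM in APPswe libraries, above the osteoblast median in every library. Each result below is therefore given with control replicate 2 and, where it matters, without it.

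In APPswe cells 3 members were called higher, Mmp9, Adamts12 and Adamtsl3, and 4 were called lower, Timp2, Mmp15, Mmp16 and Adamtsl5. A gene was called in edgeR's quasi-likelihood test when its Benjamini-Hochberg adjusted p over all genes tested was 0.05 or less and its log2 fold change was 1 or more in either direction. Of the 48 members 36 had enough counts to be tested (15 Mmp, 3 Timp, 14 Adamts and 4 Adamtsl), so the calls were 8.33% of tested members higher and 11.1% lower. Over all 13484 genes tested, 3.74% were called higher and 3.60% lower. Without a limit on the fold change, 13 members (36.1%) passed the adjusted p, 8 higher and 5 lower, against 22.5% of all genes. The 3 control and 3 APPswe values of CPM did not overlap in 23 tested members (63.9%, 17 above and 6 below control), against 45.0% of all genes. The median log2 fold change of tested members was 0.19, beside -0.0033 over all genes, and their median absolute log2 fold change was 0.604, beside 0.262 over all genes. A filter that asks for enough counts in 1 group favours genes that are high in that group, so these shares describe the tested members and not all 48.

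**Figure D1:**
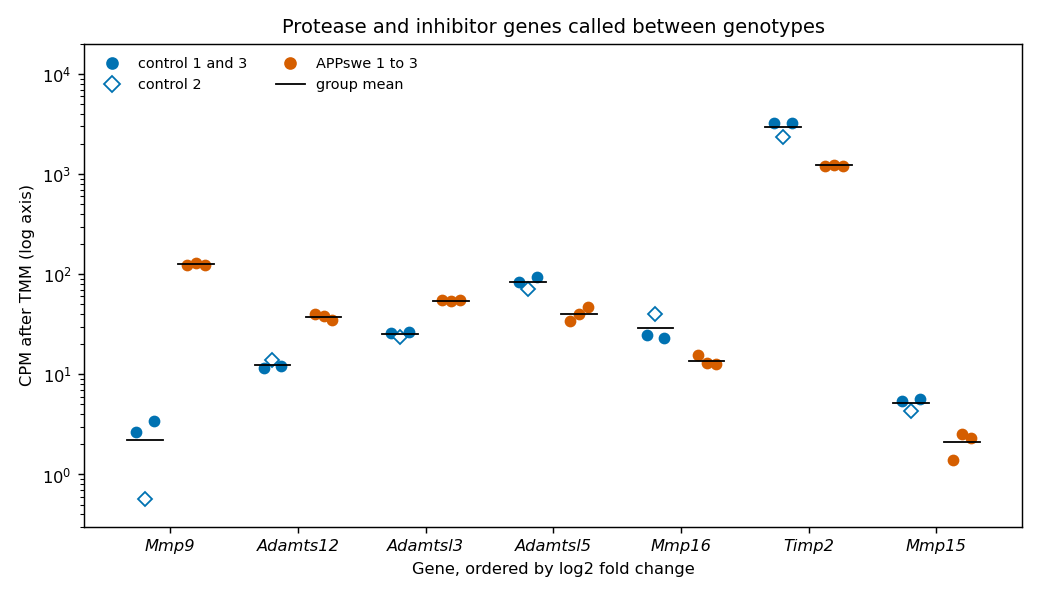
Expression of the 7 called members in each library, as CPM after TMM on a log axis, with control in blue (control replicate 2 as an open diamond), APPswe in orange and a bar at each group mean. Mmp9 rose from at most 3.44 CPM in control to at least 124 CPM in APPswe libraries, while the other 6 genes differed by smaller factors without overlap between the groups.

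Without control replicate 2 the calls numbered 7 higher and 6 lower among 37 tested members, against 4.87% and 6.58% of the 13753 genes then tested. Of the 7 calls made with all libraries 6 were kept, and Mmp16 was lost. The genes added were Mmp8, Adamts6, Adamts16 and Adamtsl1 on the higher side and Mmp3, Mmp10 and Mmp13 on the lower side. In each of these 7 genes control replicate 2 lay outside the range of the other 2 controls, as described gene by gene below.

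Mmp9 (chromosome 2, 164940326 to 164955850, GRCm38.p6) had 46, 10 and 61 counts in control replicates 1, 2 and 3. In APPswe replicates 1, 2 and 3 it had 2218, 2326 and 2219 counts. All 3 controls were thus near the bottom of the scale, replicate 2 lowest, and the 3 APPswe libraries were nearly equal. The level was 2.22 ± 1.49 CPM in control and 126 ± 2.93 CPM in APPswe cells (SD, n = 3 each; log2 fold change 5.83, SE 0.46, edgeR adjusted p = 0.000811), where SE is the standard error. The lowest APPswe value was 36.1 times the highest control value. Without control replicate 2 the log2 fold change was 5.37 (SE 0.11, edgeR adjusted p = 5.78e-10).

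With all libraries Mmp9 stood far from the other members. The other 35 tested members had log2 fold changes between -1.29 (Mmp15) and 1.90 (Adamts16), so Mmp9 exceeded the next by 3.92 on the log2 scale. This distance rested on control replicate 2. Without it Mmp8 came next at 4.33, only 1.04 below the 5.37 of Mmp9, and the other members lay between -2.35 (Mmp10) and 1.67 (Adamts12). Among all 13484 genes it ranked 13 by log2 fold change, and it ranked 5 of the 12336 genes whose mean log2 CPM was 1 or more. The 4 genes above it there were Myh7 (6.61), Igfn1 (6.23), Slc15a2 (6.12) and Ttn (5.86). Myh7 and Ttn encode sarcomere proteins of striated muscle, and Slc15a2 a peptide transporter. Its rank without control replicate 2 was 53 of 13753 genes, and 28 of 12371 at that level. By p-value, which weighs the spread as well, Mmp9 ranked 90 with all libraries.

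**Figure D2:**
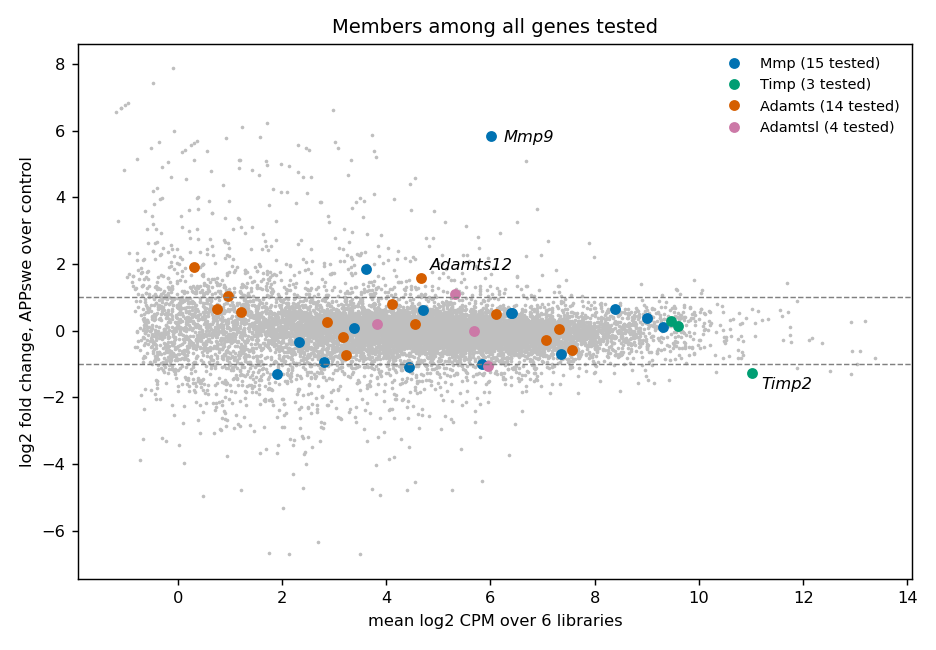
Log2 fold change of APPswe over control against mean log2 CPM over the 6 libraries for all 13484 genes tested (grey), with Mmp, Timp, Adamts and Adamtsl members in colour and dashed lines at the fold limits. Mmp9 lies at 5.83 and the other members between -1.29 and 1.90 (Timp2 at -1.26, Adamts12 at 1.59), whereas without control replicate 2, which is not plotted, Mmp9 is at 5.37 and Mmp8 at 4.33.

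Some markers of osteoclasts moved in the same direction as Mmp9 and others did not. Of 10 such genes (Mmp9 left out) 9 were tested and 3 were called higher, Acp5, Oscar and Ocstamp, with 0 called lower. Acp5, the tartrate-resistant acid phosphatase, had 119, 66 and 126 counts in control and 3344, 3687 and 3706 counts in APPswe libraries (log2 fold change 5.09, SE 0.24, edgeR adjusted p = 0.000296). Their summed level was 296 to 433 CPM in control and 713 to 731 CPM in APPswe libraries. Ctsk, the collagen-degrading cathepsin of osteoclasts, rose by a log2 fold change of 0.77 (adjusted p = 0.0259), while Tnfrsf11a and Nfatc1, the receptor and the main transcription factor of osteoclast differentiation, had log2 fold changes of -0.15 and -0.03 and did not pass. Itgb3, the integrin chain by which osteoclasts attach to bone, went the other way, at 22.0 to 45.2 CPM in control and 20.7 to 20.9 CPM in APPswe libraries (log2 fold change -0.79, edgeR adjusted p = 0.0672), and without control replicate 2 it was called lower (log2 fold change -1.04, edgeR adjusted p = 2.68e-06). Dcstamp, a fusion gene of osteoclasts, was then called higher as well (log2 fold change 1.71, and 1.09 with all libraries). Skeletal muscle markers also differed, with a summed level of 3.44 to 11.1 CPM in control and 138 to 141 CPM in APPswe libraries and 6 of 6 tested genes called higher. Of the 12 osteoblast markers 1 was called higher, Sp7 (log2 fold change 1.98, edgeR adjusted p = 0.0205), and 0 lower. Without control replicate 2 Sp7 was still called higher, and Bglap2, Dmp1 and Phex were called lower (log2 fold changes -1.12, -4.21 and -1.27). Neutrophil markers, of a cell type that stores Mmp9 and Mmp8 protein, summed to between 0.450 and 2.60 CPM in every library, and Ly6g had 2 counts in control replicate 3 and 0 in each other library. Fibroblast markers summed to 3409, 1803 and 3411 CPM in control and 5776 to 5930 CPM in APPswe libraries. Of the 6 tested genes 2 were called higher, Pdgfra and Col3a1, and 0 lower. Much of the sum was Col3a1 (mean 1800 CPM in control, 4824 CPM in APPswe). The median of the fibroblast markers was 287, 154 and 293 CPM in control and 230 to 242 CPM in APPswe libraries. Without control replicate 2 Dcn was called lower (log2 fold change -1.08). Endothelial markers summed to 119, 1.18 and 127 CPM in control and 5.44 to 6.57 CPM in APPswe libraries. None of these was called with all libraries, and Pecam1, Cdh5, Tek and Tie1 were all called lower without control replicate 2. The part of any of these cell types in the Mmp9 difference was not tested. In bulk RNA fewer cells of a type and less RNA per cell cannot be told apart.

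Levels between genes were compared only as FPKM, the authors' length-scaled unit. By mean FPKM Mmp9 ranked 16 of the 20 Mmp genes in control and 6 in APPswe cells, at 0.740 ± 0.492 and 44.4 ± 0.966 FPKM (SD, n = 3 each). Its share of the summed Mmp FPKM was 0.104% in control and 4.75% in APPswe cells, taken from the group means. The summed Mmp FPKM was 802, 596 and 745 in control and 958, 923 and 919.7 in APPswe replicates 1 to 3. Without Mmp9 the sums were 713 ± 106 and 889 ± 21.2 FPKM (SD, n = 3 each), so APPswe libraries were higher without it as well.

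The bulk of Mmp transcripts came from Mmp2, Mmp12 and Mmp14 in every library. Together they gave 60.9%, 82.2% and 61.4% of the Mmp FPKM in control and 70.5% to 70.7% in APPswe libraries. Mmp2, the other gelatinase, had 10415, 11160 and 10656 counts in control and 11424, 12144 and 11957 in APPswe libraries. These values did not overlap, but the difference was small and did not pass (log2 fold change 0.12, SE 0.07, edgeR adjusted p = 0.259). Mmp14, the membrane-anchored protease that activates pro-Mmp2, rose from 443 ± 18.3 to 578 ± 30.0 CPM (SD, n = 3 each; log2 fold change 0.38, edgeR adjusted p = 0.0169), under the fold limit. Mmp12, the macrophage elastase, rose from 260 ± 32.5 to 408 ± 34.4 CPM (log2 fold change 0.65, edgeR adjusted p = 0.0108). The summed macrophage markers were lower in the same APPswe libraries, as given above, but much of that sum was Lyz2 (mean 13550 CPM in control, 7622 CPM in APPswe). Of the 13 genes 1 was called lower, Cd14, and 1 higher, Aif1. Without control replicate 2 both were under the fold limit (log2 fold changes -0.70 and 0.91), and Lyz2 was called lower (-1.02). With all libraries Lyz2, Cd68, C1qa, C1qb, C1qc, Adgre1 and Itgam fell past the adjusted p under the fold limit, and Csf1r was level (log2 fold change -0.07). Csf1r had its highest value in control replicate 2, and without that library its log2 fold change was 0.23 (edgeR adjusted p = 0.00556). The part of macrophages in the Mmp12 difference was not tested.

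Smaller rises under the fold limit were measured for Mmp11 (stromelysin 3), with a log2 fold change of 0.62, Mmp23 with 0.52 and Adamts10, a protease linked to fibrillin microfibrils, with 0.50. Their edgeR adjusted p-values were 0.0111, 0.0161 and 0.0179. With single libraries left out in turn, the highest edgeR adjusted p was 0.0602, 0.0720 and 0.0841 for these genes, 0.0911 for Mmp14 and 0.0509 for Mmp12. Mmp19 had CPM values of 47.2 to 79.9 in control and 98.5 to 103 in APPswe libraries but did not pass (log2 fold change 0.54, edgeR adjusted p = 0.0953). Without control replicate 2 it passed the adjusted p at a smaller log2 fold change of 0.33 (edgeR adjusted p = 0.00164). Mmp17 was at 10.1 ± 3.77 and 10.7 ± 2.35 CPM (SD, n = 3 each). Reads of Mmp11 and of Mmp19 could also belong to genes that overlap them on the opposite strand, Chchd10 and Tmem198b, because the strand setting of the counting is not given in the sources used here.

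The metalloproteinases called lower were both of the membrane type. Mmp15 had 93, 77 and 101 counts in control and 25, 46 and 41 in APPswe libraries, few counts in every library, and fell by 1.29 on the log2 scale (SE 0.27, edgeR adjusted p = 0.0174). The call was lost without control replicate 1 or 3 or APPswe replicate 2 or 3, with an edgeR adjusted p of 0.0516, 0.0537, 0.0517 and 0.0702. Mmp16 had 429, 720 and 406 counts in control and 277, 235 and 225 in APPswe libraries. Its log2 fold change was -1.09 (SE 0.23, edgeR adjusted p = 0.0197), with the highest value in control replicate 2, and without that library it was -0.79 (edgeR adjusted p = 0.000152), under the fold limit. Without APPswe replicate 1, 2 or 3 its edgeR adjusted p was 0.0627, 0.0907 and 0.0898. Mmp28, a secreted metalloproteinase known as epilysin, fell by 0.92 on the log2 scale (edgeR adjusted p = 0.0178, and up to 0.0887 with a single library left out), from 9.07 ± 1.79 to 4.78 ± 0.438 CPM (SD, n = 3 each).

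**Figure D3:**
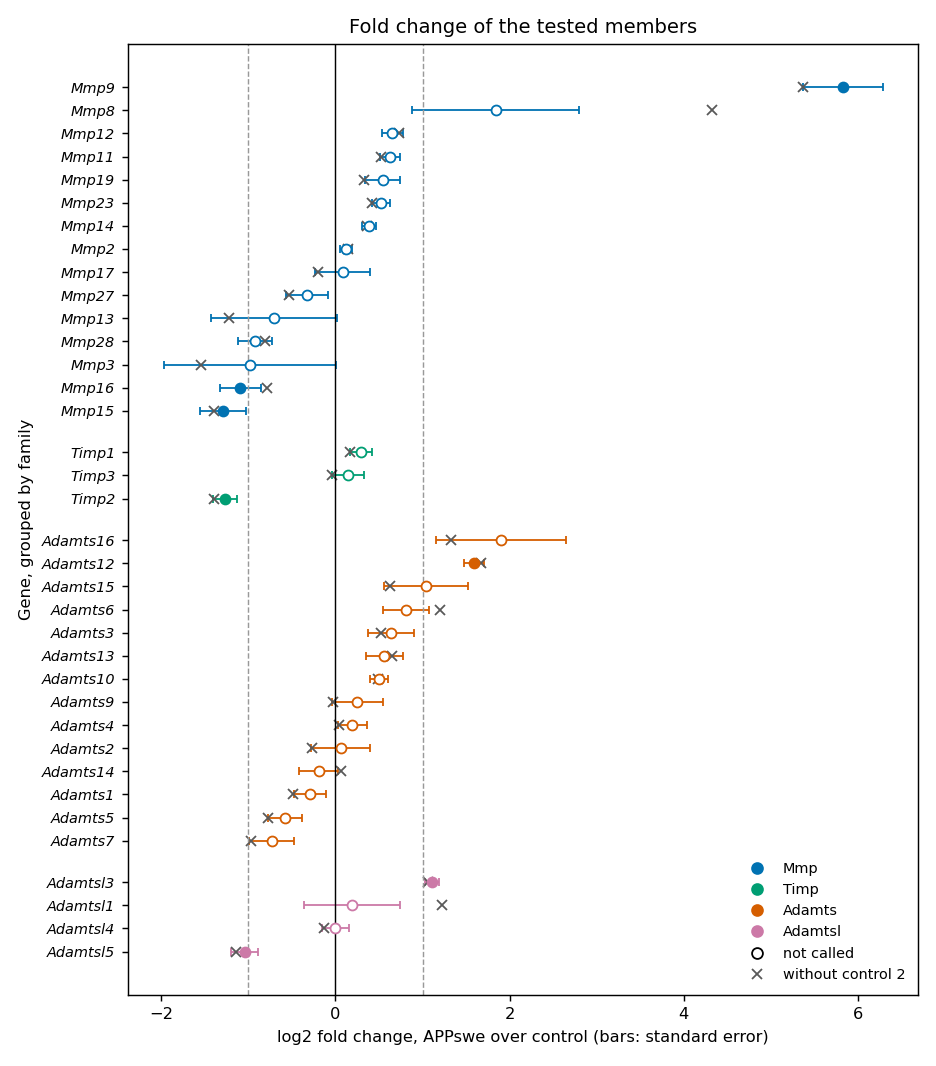
Log2 fold change of APPswe over control for the 36 tested members, grouped by family, with bars of 1 standard error, filled points for called genes, crosses for the value without control replicate 2 and dashed lines at the fold limits. Most crosses lie near their points; Mmp8 moves from 1.84 to 4.33 and Adamtsl1 from 0.19 to 1.22 when that library is left out.

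On mouse chromosome 9 lies a cluster of 7 members, in the order Mmp13, Mmp12, Mmp1b, Mmp3, Mmp10, Mmp8 and Mmp27. Within it Mmp13, Mmp3 and Mmp10 shared a pattern over the libraries, and Mmp8 had another. Mmp13 had 5342, 506 and 4773 counts in control and 2372, 2171 and 2101 in APPswe libraries. Mmp3 (stromelysin 1) had 2053, 48 and 1899 counts in control and 711, 652 and 698 in APPswe libraries. Mmp10 (stromelysin 2) had 38, 4 and 33 counts in control and 7, 8 and 6 in APPswe libraries and did not pass the count filter. For all 3 genes the APPswe values lay below control replicates 1 and 3 and above control replicate 2. With all libraries Mmp13 and Mmp3 did not pass (log2 fold changes -0.70 and -0.98, edgeR adjusted p = 0.515 and 0.507). Both were called lower without control replicate 2, with log2 fold changes of -1.22 and -1.55 (edgeR adjusted p = 5.27e-07 and 7.72e-08), as was Mmp10 with -2.35. Mmp8, the neutrophil collagenase, had 18, 249 and 15 counts in control and 369, 336 and 312 in APPswe libraries, so control replicate 2 lay close to APPswe. Its log2 fold change was 1.84 (SE 0.95, edgeR adjusted p = 0.209), and 4.33 without that library (edgeR adjusted p = 1.93e-08). Mmp27 was at 5.43 ± 1.60 and 4.33 ± 0.207 CPM (SD, n = 3 each) and did not pass (log2 fold change -0.33), but without control replicate 2 it passed the adjusted p, under the fold limit (log2 fold change -0.53, edgeR adjusted p = 0.0128). Mmp1b had at most 2 counts.

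**Figure D4:**
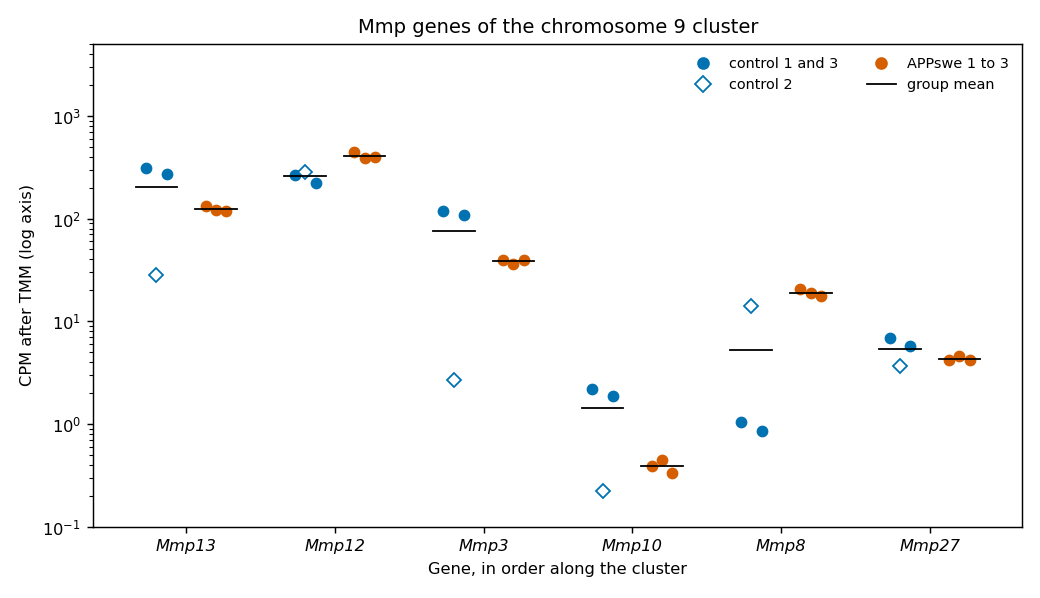
CPM after TMM on a log axis for 6 genes of the chromosome 9 cluster in order along the chromosome (Mmp1b, at most 2 counts, is left out), with control in blue (control replicate 2 as an open diamond), APPswe in orange and a bar at each group mean. Control replicate 2 is the lowest library for Mmp13, Mmp3 and Mmp10, and for Mmp8 it lies near the APPswe libraries.

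Promoters are shown for the 3 genes that moved together and for Mmp8, chosen after their values were seen. The motifs marked in them are not particular to these 3 genes. The windows are the 250 bases before the RefSeq gene start (GRCm38.p6), read 5′ to 3′ on the gene's strand, with capitals on every TGANTCA (the AP-1 motif, which reads the same on both strands) and every TATAAA (the TATA box, searched on the gene's strand). The 2 motifs do not overlap each other.
Mmp13, chr9:7272264-7272513, plus strand: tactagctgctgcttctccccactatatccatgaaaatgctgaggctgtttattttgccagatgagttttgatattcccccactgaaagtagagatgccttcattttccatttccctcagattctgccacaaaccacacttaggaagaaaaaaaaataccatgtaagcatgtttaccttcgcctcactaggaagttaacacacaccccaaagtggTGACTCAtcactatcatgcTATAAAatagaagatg
Mmp3, chr9:7445572-7445821, plus strand: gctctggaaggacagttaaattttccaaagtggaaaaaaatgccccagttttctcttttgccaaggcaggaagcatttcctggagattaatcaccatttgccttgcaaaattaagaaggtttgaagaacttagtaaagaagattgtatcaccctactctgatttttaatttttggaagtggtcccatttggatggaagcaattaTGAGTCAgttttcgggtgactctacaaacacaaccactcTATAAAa
Mmp10, chr9:7502092-7502341, plus strand: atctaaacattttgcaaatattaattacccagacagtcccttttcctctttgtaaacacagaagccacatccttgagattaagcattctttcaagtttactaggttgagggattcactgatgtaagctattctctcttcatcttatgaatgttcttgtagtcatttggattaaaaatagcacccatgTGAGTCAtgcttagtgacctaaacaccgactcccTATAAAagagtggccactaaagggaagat
Mmp8, chr9:7558179-7558428, plus strand: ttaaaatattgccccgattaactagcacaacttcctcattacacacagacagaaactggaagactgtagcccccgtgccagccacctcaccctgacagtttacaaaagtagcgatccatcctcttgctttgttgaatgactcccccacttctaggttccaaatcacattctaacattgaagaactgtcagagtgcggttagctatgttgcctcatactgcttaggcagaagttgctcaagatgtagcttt
TGANTCA begins 35 bases before the start in Mmp13, 46 in Mmp3 and 63 in Mmp10, and the Mmp8 window holds neither motif. Mmp1b, with at most 2 counts, also has both, TGANTCA 93 and TATAAA 49 bases before the start. A further window of Mmp12, which rose, has TGANTCA at 44 bases and no TATAAA. The RefSeq start of Mmp8 was not matched to a GENCODE transcript, unlike those of the other 3 genes. RefSeq windows were present for 33 of the 48 members. Mmp9, Mmp2, Mmp16, Mmp17 and Mmp19 were among those without a window, so their promoters were not examined. TGANTCA was found in 5 of the 8 windows of cluster genes (62.5%; Mmp12 has 2 windows) and in 0 of the 27 windows of members elsewhere, against 6.75% of all 32851 windows. TATAAA was found in 4 of the 8 cluster windows, against 7.59% of all windows. Such matches describe these letters only.

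Among the inhibitors Timp2 fell and the other 2 tested genes did not pass. Timp2 (chromosome 11, 118301061 to 118355411), which inhibits metalloproteinases and also bridges Mmp14 to pro-Mmp2, had 55884, 41739 and 57388 counts in control and 21486, 22315 and 21695 in APPswe libraries. The APPswe values were nearly equal and all lay well below control. Its level went from 2937 ± 512 to 1222 ± 19.5 CPM (SD, n = 3 each; log2 fold change -1.26, SE 0.14, edgeR adjusted p = 0.00193), and the log2 fold change without control replicate 2 was -1.40. Timp2 overlaps Cep295nl on the same strand, which had 39 to 261 counts.

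Timp1, the other abundant inhibitor, had 11879, 9240 and 12338 counts in control and 13046, 13853 and 14667 in APPswe libraries. The groups did not overlap, but the difference did not pass (log2 fold change 0.29, SE 0.13, edgeR adjusted p = 0.151). Without control replicate 2 the log2 fold change was 0.17, just past the adjusted p (0.0492 in edgeR) and under the fold limit. Timp3, which binds to the matrix and also inhibits ADAMTS proteases, was at 739 ± 182 and 817 ± 29.6 CPM (SD, n = 3 each; log2 fold change 0.14, edgeR adjusted p = 0.603), and its log2 fold change was -0.04 without control replicate 2. Timp4 had 0 to 5 counts per library and was not tested.

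In FPKM the Timp genes together were at 2188, 1602 and 2188 in control and 1782, 1816 and 1891 in APPswe libraries. Timp2 made up 42.4% to 42.9% of that sum in control and 19.5% to 20.8% in APPswe libraries. The ratio of summed Mmp to summed Timp FPKM was 0.366, 0.372 and 0.340 in control and 0.538, 0.508 and 0.486 in APPswe libraries, without overlap. Control replicate 2, low in both sums, lay with the other controls in this ratio.

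**Figure D5:**
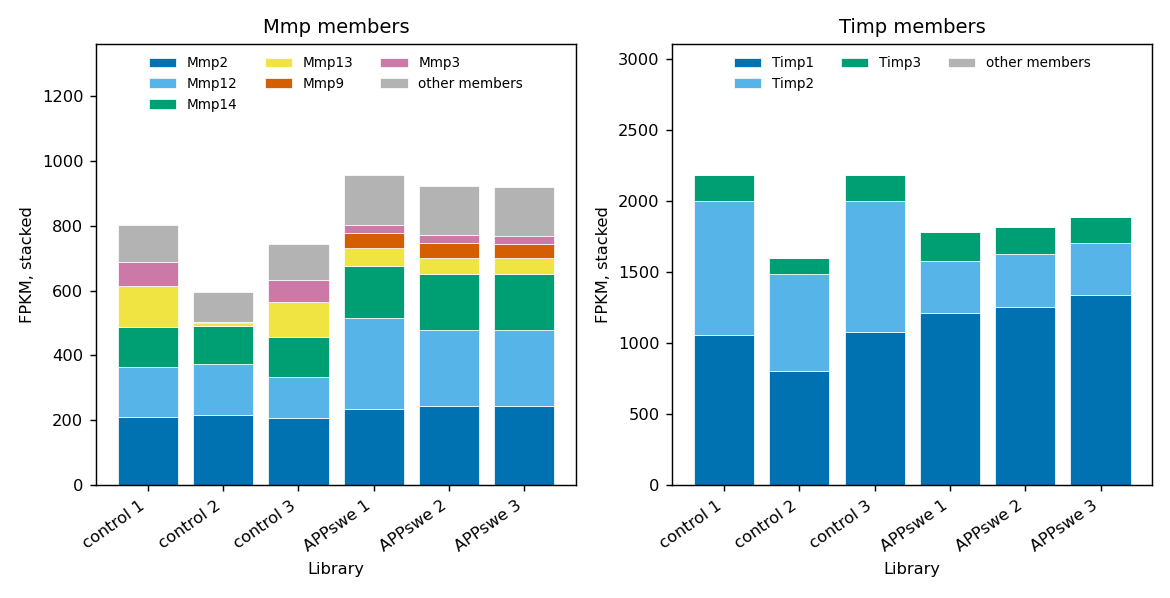
Stacked FPKM of the Mmp members (left) and the Timp members (right) in each library. Mmp2, Mmp12 and Mmp14 make up most of every Mmp bar, Mmp9 is visible in the 3 APPswe bars only, and the Timp2 segment is 19.5% to 20.8% of the Timp bar in APPswe and 42.4% to 42.9% in control libraries.

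Among the ADAMTS proteases Adamts12 alone was called with all libraries. This protease, known to cut cartilage oligomeric matrix protein, had 201, 245 and 216 counts in control and 720, 684 and 618 in APPswe libraries. Control replicate 2 was the highest control by a small margin, and the level rose from 12.5 ± 1.12 to 37.7 ± 2.84 CPM (SD, n = 3 each; log2 fold change 1.59, SE 0.11, edgeR adjusted p = 0.000569). The aggrecan-cutting proteases Adamts5 and Adamts1 gave no call. Adamts5 had 4618, 2860 and 4556 counts in control and 2920, 2765 and 2471 in APPswe libraries (log2 fold change -0.58, edgeR adjusted p = 0.0738). For Adamts1 the log2 fold change was -0.29, at an edgeR adjusted p of 0.287. Without control replicate 2 Adamts5 and Adamts1 passed the adjusted p at log2 fold changes of -0.78 and -0.48, under the fold limit.

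Adamts2, which removes the amino propeptide of procollagen, was among the 3 most abundant members of its family in FPKM and showed no stable direction. It had 3250, 1343 and 3668 counts in control and 2854, 2961 and 2930 in APPswe libraries (log2 fold change 0.06, edgeR adjusted p = 0.919, and -0.27 without control replicate 2). Adamts16 had 11, 0 and 14 counts in control and 29, 38 and 29 in APPswe libraries, and its log2 fold change of 1.90 (SE 0.75) did not pass (edgeR adjusted p = 0.114). Adamts6 had 171, 324 and 162 counts in control and 391, 398 and 379 in APPswe libraries, and its log2 fold change was 0.81 with all libraries (edgeR adjusted p = 0.0692) and 1.20 without control replicate 2. The remaining tested members, Adamts3, Adamts7, Adamts9, Adamts13, Adamts14 and Adamts15, had log2 fold changes from -0.73 to 1.04, and none of them passed with all libraries. Without control replicate 2 Adamts7 and Adamts13 passed under the fold limit (log2 fold changes -0.97 and 0.64, edgeR adjusted p = 9.37e-05 and 0.0272). Adamts7 overlaps Tbc1d2b on the opposite strand, which had 1671 to 2150 counts.

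The ADAMTS-like genes went in both directions. Adamtsl3 had 451, 420 and 467 counts in control and 980, 964 and 976 in APPswe libraries, tight within each group (log2 fold change 1.10, SE 0.08, edgeR adjusted p = 0.000611). Adamtsl5 had 1465, 1269 and 1666 counts in control and 606, 721 and 838 in APPswe libraries (log2 fold change -1.04, SE 0.15, edgeR adjusted p = 0.00538). It slipped under the fold limit without control replicate 3, at -0.95, and without APPswe replicate 1, at -0.93. Adamtsl4, a binder of fibrillin microfibrils, was level at 51.3 ± 10.3 and 51.2 ± 5.07 CPM (SD, n = 3 each; edgeR adjusted p = 0.995). Adamtsl1 had 106, 469 and 118 counts in control and 264, 267 and 266 in APPswe libraries, so its log2 fold change of 0.19 (edgeR adjusted p = 0.834) joined 2 controls below and 1 above all APPswe libraries. It was 1.22 without control replicate 2 (edgeR adjusted p = 7.19e-06).

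The libraries are named in 2 styles, with a hyphen (control 1 and 2, APPswe 1) or without it (control 3, APPswe 2 and 3), and what the styles stand for is not given. Control replicate 2 is also the one library whose name has the letter S where the names of the other 5 have L, and the letters are not explained either. Within each style the called genes kept their direction. The ratio of mean CPM, APPswe over control, was 77.3 and 36.9 for Mmp9, 3.18 and 2.99 for Adamts12, 2.21 and 2.06 for Adamtsl3, and 0.432 and 0.380 for Timp2 in libraries with and without the hyphen. For Adamtsl5 it was 0.436 and 0.464, for Mmp15 0.289 and 0.427, and for Mmp16 0.476 and 0.562.

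The 12 members not tested were Mmp1b, Mmp10, Mmp21, Mmp24, Mmp25, Timp4, Adamts8, Adamts17, Adamts18, Adamts19, Adamts20 and Adamtsl2. Mmp21 had 0 counts in all 6 libraries, which allows up to 0.167 to 0.173 CPM per library. Adamts8 had 5, 18 and 5 counts in control and 4, 2 and 1 in APPswe libraries, and Adamts20 had 1, 1 and 3 against 8, 6 and 4. These genes were counted too thinly for the test, and Mmp10 alone entered it once control replicate 2 was left out.

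Genes that act with these proteases moved in both directions. A list of 45 partner genes covered plasminogen activation, other inhibitors and activators, ADAM proteases, astacins, protein fucosylation, ADAMTS substrates and cathepsins. Of its 37 tested genes 3 were called higher and 1 lower, against 3.74% and 3.60% of all genes. The adjusted p was passed by 12 of them, 6 in each direction, against 22.5% of all genes. Adam12, a membrane protease of the related ADAM family, rose from 21.7 ± 1.23 to 83.5 ± 3.84 CPM (SD, n = 3 each; log2 fold change 1.94, edgeR adjusted p = 0.000287). The proteoglycan substrates Vcan (versican) and Acan (aggrecan) rose by log2 fold changes of 2.20 (edgeR adjusted p = 0.000509) and 3.39 (edgeR adjusted p = 0.0158), Acan from only 8, 0 and 11 counts in control to 72, 69 and 65 counts in APPswe libraries. Without APPswe replicate 1, 2 or 3 the edgeR adjusted p of Acan was 0.0744, 0.0756 and 0.0726. Thsd4, an ADAMTS-like protein of microfibrils outside the symbol rule, fell by 1.35 on the log2 scale (edgeR adjusted p = 0.00921), and its edgeR adjusted p was 0.0518 and 0.0564 without APPswe replicate 2 or 3. Without control replicate 2 the partner calls were 3 higher and 3 lower, against 4.87% and 6.58% of all genes, with Serpine2 and Ctsb added on the lower side. Acan is also known as a cartilage gene. The 5 chondrocyte markers had a summed level of 33.1, 180 and 33.8 CPM in control and 50.0 to 56.3 CPM in APPswe libraries, with 0 of 3 tested genes called. Most of the sum in control replicate 2 was Col2a1, at 162 CPM there and 18.8 and 18.5 CPM in control replicates 1 and 3. Col11a2 was lowest in control replicate 2, at 3.82 CPM. Sox9, the main transcription factor of chondrocytes, was at 5.14, 14.2 and 5.70 CPM in control and 16.4 to 19.9 CPM in APPswe libraries (log2 fold change 1.15, edgeR adjusted p = 0.0762), and it was called higher without control replicate 2 (log2 fold change 1.77, edgeR adjusted p = 1.61e-06). The part of these markers' cells in the Acan difference was not tested.

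Other regulators differed less. Plau, the urokinase that starts the plasmin route to protease activation, fell by 0.75 on the log2 scale (edgeR adjusted p = 0.0421, and up to 0.142 with a single library left out), under the fold limit, while its receptor Plaur did not pass (log2 fold change 0.11, edgeR adjusted p = 0.444). Without control replicate 2 the log2 fold change of Plau was -0.97 (edgeR adjusted p = 4.70e-07), still under the fold limit. Reck, a membrane inhibitor of metalloproteinases, had 795, 317 and 896 counts in control and 461, 445 and 410 in APPswe libraries. Its log2 fold change was -0.63 (edgeR adjusted p = 0.241), and -0.97 without control replicate 2 (edgeR adjusted p = 5.45e-06). Lcn2, whose protein binds Mmp9, had 76, 1 and 62 counts in control and 37, 43 and 38 in APPswe libraries (log2 fold change -0.26, edgeR adjusted p = 0.860), so it did not follow Mmp9 in these libraries. Without control replicate 2 the log2 fold change of Lcn2 was -0.83 (edgeR adjusted p = 0.00386), under the fold limit. Among the cathepsins Ctsb fell by 0.99 on the log2 scale and Ctsk rose by 0.77, both past the adjusted p and under the fold limit.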

How the data were processed

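Bulk RNA of tdTomato-sorted calvarial cultures was sequenced in 6 libraries on the DNBseq platform, from a SMARTER mRNA-Seq kit. Raw gene counts, not normalized, and rounded FPKM values were both deposited by the authors. The aligner and counter are not given in the sources used here. The log2 fold changes and p-values in the deposited table are the authors' own comparison and were not used. Blank FPKM cells (397 genes in libraries named with a hyphen, 716 in the others; for the members only Mmp1b and Mmp21) were read as 0 in sums.

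The test was run with edgeR 4.0.16 under R 4.3.3 (TMM, filterByExpr, quasi-likelihood test, Benjamini-Hochberg over 13484 genes), without a covariate. The standard error was the size of the log2 fold change over the square root of F. Sums of FPKM and shares were not tested. Libraries of a group differed by more than sampling noise and were kept separate. The self-test drew counts with known changes. Sequences and positions came from GENCODE vM21 and RefSeq (GRCm38.p6), matched by gene number or symbol.

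Alternatives were DESeq2 1.42.0, its size factors, no TMM, other filters, a replicate block, the name style as covariate, other call rules, limma 3.58.1 on log2(FPKM + 1) or log2(FPKM + 0.1), and each library left out. Members, lists and tests were chosen with earlier results of these data known. The genes named are Mmp9, all members called or past the adjusted p, those fixed by name (Timp1 to Timp4, Mmp2, Mmp3, Mmp8, Mmp12 to Mmp14, Adamts1, Adamts4, Adamts5), the 3 highest in FPKM per family, the 5 members furthest off in control replicate 2, called partners with Reck, Plau, Plaur and Lcn2, and the genes above Mmp9. Adamts4 is plotted with the tested members, and its values are not described in the text. Other genes were named after their values were seen.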

Additional observations from a re-analysis of the deposited data

How the results depend on the processing

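Over 33 tested genes named in the text and 18 alternatives, 516 of 585 values kept direction and side of the threshold, 37 lost a call, 12 gained one and 20 changed sign, the last in 5 genes that were not called. Mmp9 and Adamts12 were called under all 18 alternatives, Timp2 under 17 (lost with glmTreat), Adamtsl3 under 15, Adamtsl5 under 11 and Mmp15 and Mmp16 under 10 each. Log2 fold changes of Mmp9 ranged from 4.75 to 6.29.

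At an adjusted p alone 8 members, 1414 genes and 6 partners were higher, and 1622 genes and 6 partners were lower. With glmTreat 147 genes were higher, and 0 members, 72 genes and 0 partners lower. With limma on log2(FPKM + 1), 322 genes were higher and 1 member, 182 genes and 0 partners lower, and without a filter 305 higher and 1, 170 and 0 lower. On log2(FPKM + 0.1), 251 genes and 0 partners were lower. A minimum of 10 counts in every library left 320 genes higher, and the name style as covariate left 2 partners lower. The rank of Mmp9 was 21 with DESeq2, 1 with the minimum of 10 counts, and 2 with each of the 3 limma fits. With single libraries left out, members called numbered 3 to 7 higher and 2 to 6 lower, all genes 281 to 670 higher and 230 to 905 lower, partners 0 to 3 lower, and the rank of Mmp9 ran from 13 to 53. The largest of these ranges' values came without control replicate 2, and 2 members were lower without control replicate 3 or any APPswe replicate.

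Sign changes were as follows. Timp3 had -0.044 to 0.25 with libraries left out, the lowest without control replicate 2. Mmp3 had 0.14, 0.29 and 0.14 in the limma fits on log2(FPKM + 1), log2(FPKM + 0.1) and log2(FPKM + 1) without a filter. Adamts2 had -0.024 with the name style and -0.27 to 0.31 with libraries left out. Adamtsl4 had 0.070 without TMM, 0.00050 without a filter, 0.0030 with the minimum of 10 counts, 0.011 with the replicate block, 0.13, 0.14 and 0.13 with limma, and -0.13 to 0.15 with libraries left out. Lcn2 had 0.21 with the replicate block, 0.30, 0.96 and 0.30 with limma, and -0.83 to 0.30 with libraries left out. The cause was not tested.

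Same-numbered control and APPswe libraries had correlations of 0.084, -0.043 and 0.190 between their deviations from the group means. Control replicate 3 and APPswe replicate 2, whose library names share an ending, had 0.146. The control mean includes the outlying control replicate 2, so these values cannot show whether libraries were paired. With the replicate number as a block 3 members were called higher and 3 lower, and 384 and 324 of all genes. DESeq2 gave no adjusted p for 2706 of its 17368 genes. With 3 libraries a group, genes near the floor of 3 counts cannot show modest changes.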
